A study of Mus musculus with 6 samples.

Results

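The genes described here were chosen by their measured levels in pools of embryonic mouse lenses: each was at least 3 times higher in control replicate 1 and in CKO replicate 2 than in any of the other 4 pools. All levels were scaled to library totals and are given as CPM. A gene was taken if the smaller of its values in those 2 pools was at least 2 CPM and at least 3 times the highest of the other 4 values, and collagen genes, whose names start with Col, were left out. Of 13024 genes in the count table, 47 met these levels, 11 of them collagens, which left 36 members. Because 1 pool of each genotype is high, the members were not selected on a genotype difference. Their high and low pools are given here as a description only.

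The study asked what conditional loss of the transcription factor Gata3 does to the forming lens, and compared RNA from 3 pools of lenses labelled CKO with RNA from 3 control pools at E14.5. Each pool held 10 lenses from 5 embryos on a mixed C57BL/6 and FVB background. CKO lenses carried Gata3 f/f with Pax6-Cre, in which a Pax6 enhancer and the P0 promoter drive Cre in the head ectoderm that gives rise to lens and cornea. Controls carried floxed Gata3 without Cre; the sources differ on whether they were f/f or f/wt, and the labels call the groups wild type and Gata3 -/-. Some cells of the developing retina also express Cre in this line. Library totals ran from 15157230 counts in CKO replicate 1 to 18811104 in CKO replicate 2, and control replicates 1, 2 and 3 held 15815805, 16337405 and 17342712.

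Gata3 counts over the whole gene were higher in the libraries labelled CKO. They were at 12.8, 23.6 and 9 CPM in control replicates 1, 2 and 3 and at 60.0, 56.6 and 48.9 CPM in CKO replicates 1, 2 and 3, so all 3 libraries labelled CKO were higher and the groups did not overlap. The counts include exons outside the deleted exon 4, so they do not check the labels, and reads over that exon were not analysed here. The study reported the excision of the floxed exon in its own reads and a fall in qPCR across it. The lens fibre nuclease gene Dnase2b was at 12.8, 19.6 and 7.78 CPM in the control pools and at 0.99, 0.319 and 0.492 CPM in the pools labelled CKO. In Gata3 and Dnase2b, control replicate 1 and CKO replicate 2 lay with their own groups. In the deposited table the columns of CKO replicates 1, 2 and 3 are named CKO2, CKO3 and CKO4, so CKO replicate 2 is column CKO3. In what follows, 6 values are given in the same order, control replicates 1, 2 and 3 and then CKO replicates 1, 2 and 3.

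The lens is made of epithelium and fibre cells only and has no stroma, vessels or pigment of its own. Around it at this stage lie the periocular mesenchyme, derived largely from the neural crest, which builds the corneal stroma and the sclera, and the pigmented epithelium at the rim of the optic cup, which makes melanin. Small leucine-rich proteoglycans such as lumican and keratocan space the collagen fibrils of the cornea, and tyrosinase and its relatives make melanin inside melanosomes.

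The label mesenchyme-rich covered only some of the members. By the smaller of the 2 high values the first member was Pmel, which encodes the fibril protein of melanosomes and was at 73.7 and 75.8 CPM per kb of exon in the 2 pools, and 7 of the 36 have known roles in pigment cells. Of the mesenchyme marker list, 5 of 11 measured genes were members, among them Lum, Dcn, Twist1 and Twist2, and of the pigment cell marker list 5 of 9 (Pmel, Dct, Gpnmb, Tyrp1 and Tyr). Taken over all members, the summed level was 1140, 184 and 151 CPM in the control pools and 166, 1551 and 207 CPM in the CKO pools. Control replicate 1 and CKO replicate 2 stand far above the rest there because the rule took genes of that pattern. In bulk RNA, fewer cells of a type and less RNA per cell cannot be told apart.

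**Figure D1:**
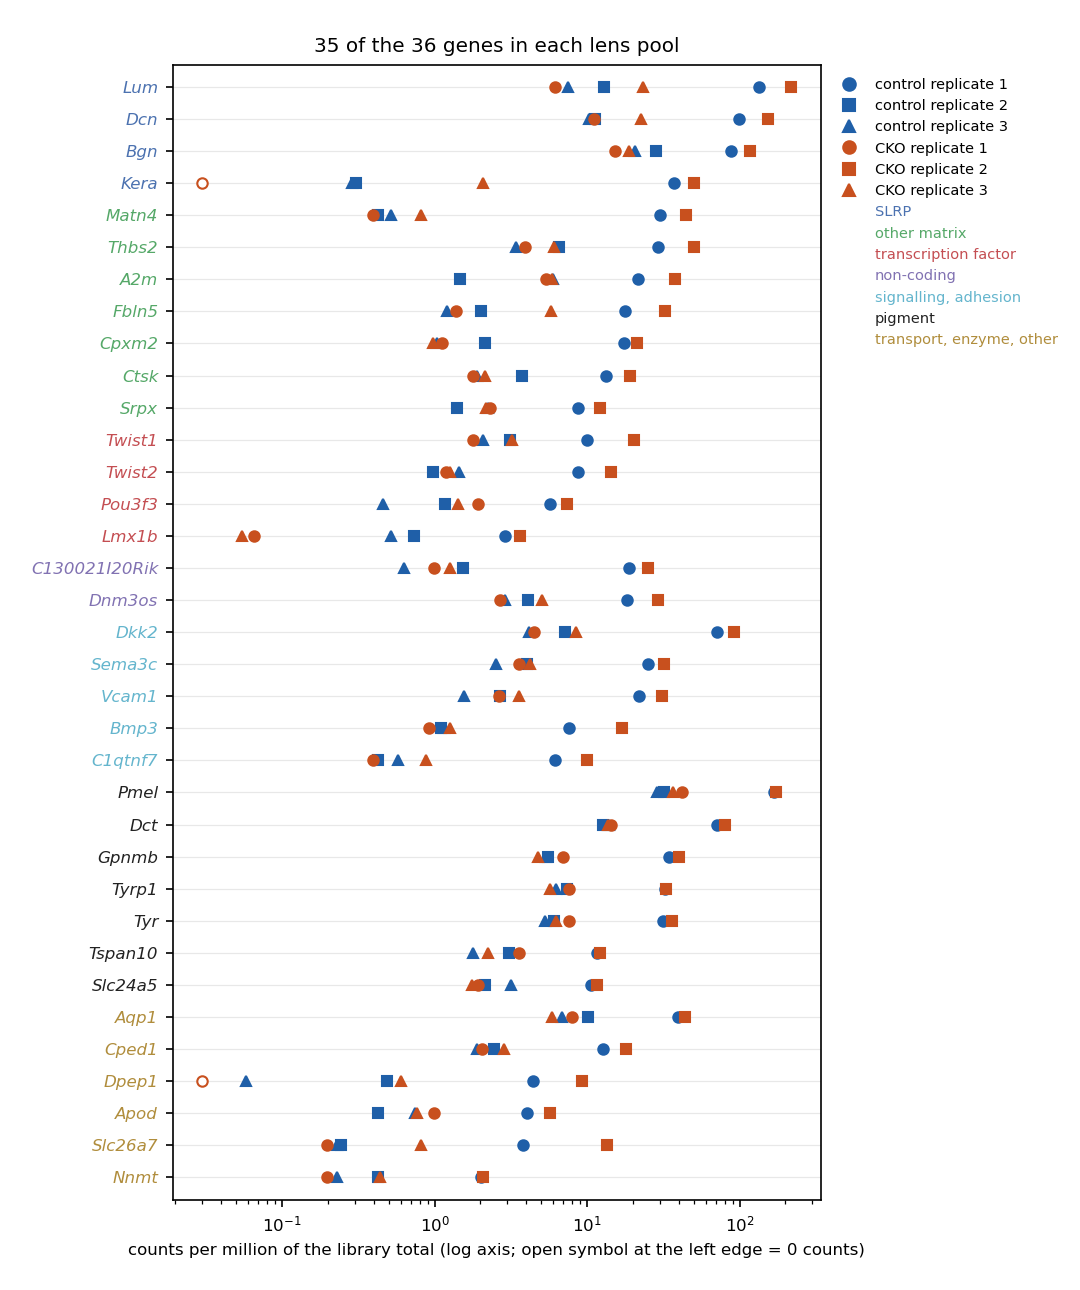
Level of 35 of the 36 genes in each pool, in CPM on a log axis, with genes ordered by role, blue symbols for control pools, orange symbols for CKO pools and open symbols for a count of 0. Control replicate 1 and CKO replicate 2 sit to the right for every gene shown, as the rule required, and the distance from the other pools varies from 3.01 times for Pou3f3 to 36.7 times for Matn4.

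Pigment genes formed a group of 7, comprising Pmel, Dct, Tyr, Tyrp1, Gpnmb, Slc24a5 and Tspan10. Pmel was at 169, 31.9 and 28.8 CPM in the control and 41.9, 174 and 36.6 CPM in the CKO pools. Dct, which encodes dopachrome tautomerase, was at 71.1, 12.8, 14.0, 14.3, 79.9 and 13.7 CPM. Tyr, which encodes tyrosinase, the enzyme that starts melanin synthesis, was at 31.4, 6.06, 5.30, 7.65, 36.1 and 6.23 CPM. The 2 high pools were nearly level in each of these genes, and the other 4 pools were not empty of them. Tyrp1, an enzyme of the same pathway, and Gpnmb, a melanosomal glycoprotein, reached 32.3 and 34.3 CPM in control replicate 1. The cation exchanger of melanosomes, Slc24a5, and the tetraspanin Tspan10 were lower, at 10.6 and 11.7 CPM there. In all, the 7 pigment genes summed to 360 CPM in control replicate 1 and 387 CPM in CKO replicate 2, and in the other 4 pools to between 64.7 CPM (control replicate 3) and 83.8 CPM (CKO replicate 1).

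Promoters of Tyr, Dct, Slc24a5 and Tspan10 are printed here because they hold a short motif that the rule did not use. The promoter of Tyrp1 holds the motif too but is not printed. That of Gpnmb does not hold it, and Pmel had no sequence at hand. RefSeq promoter sequences (build GRCm38.p6, from 250 bases before to 50 bases after the start site) were at hand for 27 of the 36 members, 6 of them pigment genes. The other 9, Pmel, Lum and Dcn among them, had none. The hexamer CATGTG, the core of the M-box bound by the melanocyte factor Mitf, was searched on both strands (CACATG on the other strand). It occurred in the promoters of 5 of the 6 pigment genes (Dct, Slc24a5, Tspan10, Tyr and Tyrp1), in those of 2 of the 21 other members (Dpep1 and Matn4), and in the promoters of 15.9% of all 27025 genes with an entry (14.2% of 32851 promoters). Such a match is a description of the letters and says nothing of binding. In the stretches before the start site printed here, 5′ to 3′ on the strand of the gene, capitals mark CATGTG or CACATG. Tyr spans chr7:87493513-87493762 on the minus strand, Dct chr14:118052247-118052496 on the minus strand, Slc24a5 chr2:125067877-125068123 on the plus strand and Tspan10 chr11:120442381-120442630 on the plus strand.
Tyr: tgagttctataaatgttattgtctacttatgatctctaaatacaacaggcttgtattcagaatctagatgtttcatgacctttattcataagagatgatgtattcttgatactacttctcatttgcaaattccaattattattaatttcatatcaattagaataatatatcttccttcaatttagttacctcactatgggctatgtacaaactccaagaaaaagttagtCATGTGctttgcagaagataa
Dct: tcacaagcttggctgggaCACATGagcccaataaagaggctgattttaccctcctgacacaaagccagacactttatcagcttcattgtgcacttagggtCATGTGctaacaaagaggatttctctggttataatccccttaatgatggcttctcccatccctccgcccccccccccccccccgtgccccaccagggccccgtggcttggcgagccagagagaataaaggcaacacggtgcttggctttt
Slc24a5: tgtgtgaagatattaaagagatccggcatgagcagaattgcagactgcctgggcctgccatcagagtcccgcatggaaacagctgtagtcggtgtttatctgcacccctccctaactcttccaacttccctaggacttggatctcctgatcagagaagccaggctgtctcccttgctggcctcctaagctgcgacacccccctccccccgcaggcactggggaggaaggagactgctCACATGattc
Tspan10: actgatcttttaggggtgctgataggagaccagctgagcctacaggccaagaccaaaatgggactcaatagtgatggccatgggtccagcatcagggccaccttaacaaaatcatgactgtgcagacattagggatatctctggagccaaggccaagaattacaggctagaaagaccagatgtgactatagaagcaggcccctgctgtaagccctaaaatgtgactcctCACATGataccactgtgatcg
The motif began 21 bases before the RefSeq start in Tyr and in Tspan10 and 13 bases before it in Slc24a5, while Dct held it at 232 and 150 bases. A hexamer of the E-box family used by Twist factors, CATCTG on either strand of the promoter, lay in 1 of the 6 pigment promoters and in 6 of the 21 others (Apod, C1qtnf7, Cpxm2, Ctsk, Dnm3os and Sema3c), against 19.2% of all genes and 17.2% of promoters. The TATA sequence TATAAA, on either strand, was found in 1 of the 6 (Tyr) and in 3 of the 21 (Dkk2, Thbs2 and Twist1), against 15.7% of genes and 13.6% of promoters.

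Among the members outside the pigment group, the small leucine-rich proteoglycans had the highest summed CPM of any role group in both high pools. Taken singly, Kera was below the signalling gene Dkk2 there. Lum, the gene of lumican, was at 134, 12.9 and 7.55 CPM in the control and 6.14, 218 and 23.4 CPM in the CKO pools. Dcn, which encodes decorin, a regulator of collagen fibril growth, was at 99.0, 11.3, 10.3, 11.1, 155 and 22.7 CPM. Kera, the gene of keratocan, which is made by corneal keratocytes, was at 36.9, 0.306, 0.288, 0, 50.2 and 2.08 CPM. Kera had 5 counts in each of control replicates 2 and 3 and 38 in CKO replicate 3, and its 0 counts in CKO replicate 1 allow up to 0.198 CPM. Bgn, which encodes biglycan, was the least selective, at 87.4, 28.3, 20.5, 15.2, 117 and 18.8 CPM. Per kilobase of exon, Lum had the highest level of these 4 genes in both high pools (54.5 and 89.3 CPM per kb), and Dcn (17.0 and 26.5), Kera (16.2 and 22.0) and Bgn (14.3 and 19.2) lay close to one another. In CKO replicate 3, Lum, Dcn and Kera were higher than in the remaining low pools, whereas Bgn was highest in control replicate 2.

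Dcn, Lum and Kera lie side by side on chromosome 10 (build GRCm38), at chr10:97479609-97518143, chr10:97565128-97572703 and chr10:97606879-97613692, all on the plus strand. The gaps are 47.0 kb between Dcn and Lum and 34.2 kb between Lum and Kera. The next gene of the family in the row, Epyc (chr10:97644068-97682454), is not a member: its levels were 2.59, 0.245, 0.519, 0.330, 6.11 and 1.91 CPM. Epyc was also highest in the 2 pools of the rule, but CKO replicate 3 was too close for the ratio of 3. The members lie on 16 chromosomes, and the only other neighbours within a megabase were Lmx1b and C130021I20Rik. Of the 10 proteoglycan genes of this family that were measured, 4 are members, which the rule required to be higher in both pools. Of the 6 others, 4 were higher in both pools than in the rest (Fmod, Epyc, Podn and, by a ratio of 1.02, Tsku), and among all 13024 genes 1163 were (8.93%). Ogn, the most abundant of them, did not follow, with 164, 225, 102, 182, 162 and 124 CPM, nor did Optc.

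**Figure D2:**
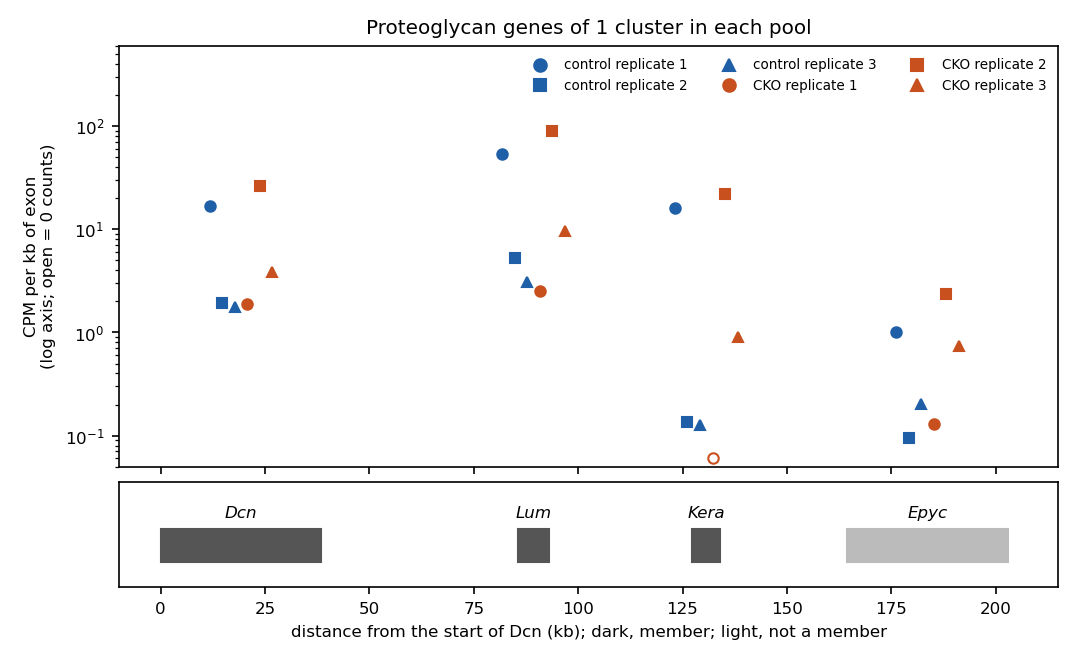
Levels per kilobase of exon (upper panel, CPM per kb on a log axis) of Dcn, Lum, Kera and Epyc in each pool, drawn at the genes' distances from the start of Dcn in kb (lower panel, boxes show gene extent). In all 4 genes control replicate 1 and CKO replicate 2 are highest and CKO replicate 3 comes next, and the open symbol marks 0 counts of Kera in CKO replicate 1.

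Further matrix proteins and enzymes that act on matrix made up 7 members. Matn4, which encodes the matrix adaptor matrilin-4, had the largest ratio of all members, 36.7, with 30.1, 0.428, 0.519, 0.396, 44.3 and 0.82 CPM. Thbs2, which encodes the matricellular protein thrombospondin 2, was at 29.2, 6.55, 3.40, 3.89, 50 and 6.07 CPM. The protease inhibitor gene A2m was at 21.6, 1.47, 5.94, 5.41, 37.6 and 5.85 CPM. Outside the 2 high pools Matn4 stayed below 1 CPM, and A2m was lowest in control replicate 2. The elastic fibre gene Fbln5, the carboxypeptidase-like Cpxm2, the collagen-degrading cathepsin gene Ctsk and Srpx had smaller high-pool values of 17.8, 17.5, 13.3 and 8.66 CPM and ratios of 3.08, 8.18, 3.56 and 3.75. Matn4 was on the list of cartilage and bone markers. Of the 5 other measured genes of that list, Alpl was at 7.78 and 10.1 CPM in the 2 pools, Spp1 at 6.26 and 6.86, Hapln1 at 5.63 and 8.93, Ibsp at 4.17 and 0.425, and Cnmd at 2.21 and 2.07 CPM.

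The collagens left out by name had the same pattern by the same levels. Col1a2, which encodes a chain of fibrillar collagen I, was at 729, 105, 67.9, 66.6, 1285 and 149 CPM, and Col1a1 at 598, 109, 56.9, 59.0, 1182 and 120 CPM. Col3a1 reached 502 and 1073 CPM and Col12a1, a fibril-associated collagen, 185 and 254 CPM in the 2 pools. All 4 were higher in CKO replicate 2 than in control replicate 1. Among the collagens left out, Col8a1 alone went the other way, at 40.6 CPM in control replicate 1 and 34.6 CPM in CKO replicate 2. The basement membrane collagen Col4a1, the highest collagen in every pool but CKO replicate 2 and a component of the lens capsule, was at 1160, 2008, 1021, 1044, 1046 and 829 CPM, and was highest in control replicate 2.

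Transcription factor genes made up 5 members, among them Twist1, Twist2, Pou3f3 and Lmx1b. Twist1, a basic helix-loop-helix factor of cranial mesenchyme, was at 10.1, 3.12, 2.08, 1.78, 20.4 and 3.23 CPM, and its relative Twist2 reached 8.73 and 14.4 CPM in the 2 pools. Lmx1b, a LIM homeodomain factor of the anterior segment mesenchyme, was at 2.91, 0.735, 0.519, 0.0660, 3.61 and 0.0547 CPM. Twist1, at 6.18 and 12.5 CPM per kb of exon, was the highest of the 5 per length. In CKO replicates 1 and 3 the Lmx1b values rest on 1 count each. Of the 40 measured genes on the list of mesenchymal transcription factors that are not members, 14 were higher in both pools than in the other 4. Over all genes the share was 8.93%, and 7.08% with TMM scaling. Members included, the list had 18 such genes by library totals and 16 with TMM scaling. Among the 14 were Prrx1 (34.6 and 54.6 CPM, with 7.19 to 12.4 CPM elsewhere) and Foxc1 (15.4 and 20.1 CPM). Zeb2, the most abundant on that list, was at 171, 144, 185, 194, 186 and 176 CPM and did not follow.

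The 2 non-coding members lie beside or within other genes. C130021I20Rik (chr2:33641193-33646354, plus strand) was at 18.7, 1.53, 0.634, 0.99, 25.0 and 1.26 CPM. Its RefSeq start lies 95 bases from that of Lmx1b, in the opposite direction, so that the pair of members is transcribed away from a shared stretch. By the GENCODE positions, used for the exon lengths, the gap between the 2 genes is longer, at 681 bases. Per kilobase of exon, C130021I20Rik (4.52 and 6.05 CPM per kb) was above Lmx1b (0.596 and 0.741). The 94 bases between the 2 RefSeq starts are shown because both genes of the pair are members. They span chr2:33641099-33641192 and are given 5′ to 3′ on the minus strand, from the side of C130021I20Rik to that of Lmx1b. This stretch has 63.8% G or C and 7 CG pairs.
C130021I20Rik to Lmx1b: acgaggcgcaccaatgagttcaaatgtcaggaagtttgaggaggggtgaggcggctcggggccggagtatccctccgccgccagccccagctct
Dnm3os, the host transcript of a microRNA cluster, lies inside Dnm3 (chr1:161982453-162478034, minus strand) on the opposite strand, at chr1:162217623-162225550, and was at 18.2, 4.10, 2.88, 2.70, 29.3 and 5.08 CPM. Dnm3 itself was at 19.7, 18.4 and 22.0 CPM in the control pools and at 16.5 and 15.7 CPM in CKO replicates 1 and 3, and was lowest in CKO replicate 2. The libraries kept strand, but the strand and overlap settings of the counting are not given in the sources used here, so values of both non-coding genes are uncertain.

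Signalling and adhesion genes gave 5 members, Dkk2, Sema3c, Vcam1, Bmp3 and C1qtnf7. Dkk2, a secreted modulator of Wnt signalling in periocular mesenchyme, was at 70.8, 7.16, 4.15, 4.49, 91.8 and 8.42 CPM. The class 3 semaphorin gene Sema3c was at 25.0, 4.04, 2.54, 3.56, 31.9 and 4.21 CPM, and the adhesion molecule gene Vcam1 at 22.1, 2.69, 1.56, 2.64, 30.8 and 3.55 CPM. Bmp3, an antagonistic member of the BMP family, was at 7.65, 1.10, 1.15, 0.924, 17.0 and 1.26 CPM. C1qtnf7 reached 6.20 and 9.99 CPM and stayed below 1 CPM elsewhere. Of the 54 measured genes on the list of signalling ligands, receptors and binding proteins that are not members, 24 were higher in both pools than in the other 4. The share of all genes was 8.93%, and 7.08% with TMM scaling. With members included, the list had 26 such genes by library totals and 22 with TMM scaling. Dkk3, the most abundant on the list, was at 1132, 1172, 1258, 1339, 1239 and 1324 CPM.

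The remaining 6 members were Aqp1, Cped1, Dpep1, Apod, Slc26a7 and Nnmt. The water channel gene Aqp1 was at 39.6, 10.1, 6.86, 7.92, 43.9 and 5.85 CPM. Slc26a7, which encodes an anion transporter, was at 3.79, 0.245, 0.231, 0.198, 13.5 and 0.82 CPM and was the member with the largest ratio between the 2 high pools (3.56). Cped1 reached 12.7 and 17.9 CPM, the dipeptidase gene Dpep1 4.43 and 9.25 CPM, the lipocalin gene Apod 4.05 and 5.74 CPM and the methyltransferase gene Nnmt 2.02 and 2.07 CPM. Dpep1 had 0 counts in CKO replicate 1, which again allows up to 0.198 CPM.

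Near the limits of the rule, Pou3f3 (ratio 3.01), Fbln5 (3.08) and Bgn (3.09) lay just inside the ratio of 3, and B3gnt9 (2.97), Angptl1 (2.93) and the melanosomal gene Mlana (2.92) just outside it. By level, Nnmt (2.02 CPM), Lmx1b (2.91 CPM) and Slc26a7 (3.79 CPM) were closest to the minimum of 2 CPM. No gene of the deposited table outside the collagens met the ratio and missed the level. The authors had limited that table to genes above a minimum mean FPKM. It therefore cannot show whether genes of lower level share the pattern. At a ratio of 2 the rule gave 84 genes, and at a ratio of 4 it gave 24.

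The rule did not fix how the 2 high pools compare with each other, and here the groups of members differed in size. Every member had a higher CPM in CKO replicate 2 than in control replicate 1, but so did 8134 of the 12443 genes that reached 2 CPM in both, with a median ratio of 1.05. In the 7 pigment genes the ratio ran from 1.02 (Tyrp1) to 1.17 (Gpnmb), with a median of 1.10. In the other 29 members it ran from 1.02 (Nnmt) to 3.56 (Slc26a7), with a median of 1.45, and 27 of the 29 lay above the highest pigment gene, Aqp1 and Nnmt being the exceptions. The proteoglycans had ratios of 1.34 (Bgn), 1.36 (Kera), 1.56 (Dcn) and 1.64 (Lum), and the largest after Slc26a7 were Bmp3 (2.22), Dpep1 (2.09) and Twist1 (2.03). Exact 95% intervals that cover counting error only were 0.977 to 1.08 for Pmel, 1.55 to 1.73 for Lum and 2.68 to 4.80 for Slc26a7. With 1 pool on each side, this is a difference between these libraries and has no replicate check. With library sizes scaled by TMM, the median ratio of all genes was 1 and 32 of the 36 members were higher in CKO replicate 2. The pigment genes Pmel, Tyrp1 and Tspan10, and Nnmt, were then slightly lower, so their direction depends on the scaling.

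**Figure D3:**
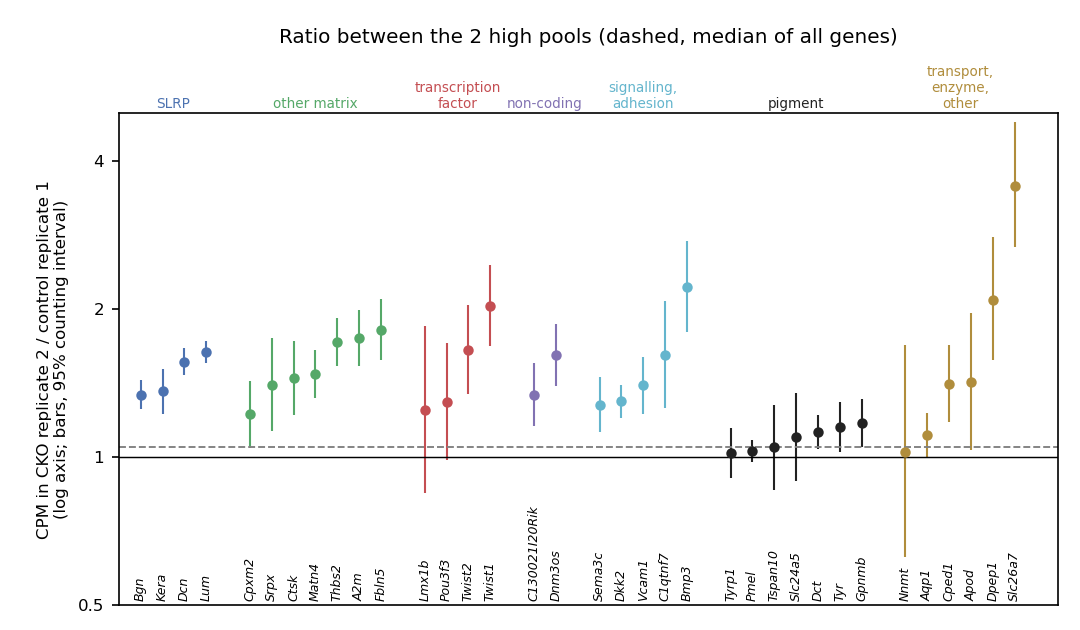
Ratio of the CPM in CKO replicate 2 to that in control replicate 1 for 35 of the 36 members, on a log axis, grouped by role, with exact 95% intervals for counting error, a solid line at equal levels and a dashed line at the median of all genes, 1.05. Pigment genes lie between 1.02 and 1.17, and most other members lie higher, up to 3.56 for Slc26a7.

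Markers of the tissues around the lens were compared over whole lists, and their part in the pattern of the members was not tested. For these lists and those that follow, the counts stand beside the share over all 13024 genes. That was 1163 genes (8.93%) higher in both pools than in the other 4, and 922 (7.08%) with TMM scaling. The 11 measured mesenchyme markers, members included, summed to 617, 293, 156, 192, 932 and 254 CPM, and 10 of them were higher in both pools than in the other 4. Without the members, which the rule made higher, 5 of 6 were, and the sums were 343, 261, 131, 170, 491 and 200 CPM. Pdgfra, the most abundant and the exception, was at 166, 187, 83.9, 125, 168 and 114 CPM. The 9 measured pigment cell markers summed to 551, 201, 149, 167, 574 and 157 CPM. All 9 were higher in both pools, but 5 of them are members, which the rule made higher. After TMM scaling 7 of the 9 were, and the fall was among genes that are not members. The 4 that are not members were all higher by library totals and summed to 213, 137, 88.9, 88.7, 211 and 89.8 CPM. Trpm1, the most abundant of them, was at 160, 97.4, 65.0, 66.8, 164 and 69.5 CPM. Mitf, which drives pigment genes, differed little between control replicates 1 and 2, at 31.7 and 27.2 CPM. Surface ectoderm markers, none of which is a member, summed to 159, 120, 64.9, 89.4, 247 and 112 CPM, with 8 of 11 higher in both pools. Their most abundant gene was the keratin Krt5, at 40.4, 33.3, 15.5, 22.7, 69.0 and 31.4 CPM. Cartilage and bone markers summed to 56.1, 28.2, 12.9, 16.8, 72.7 and 23.3 CPM. Without the member Matn4 the sums were 26.0, 27.7, 12.4, 16.4, 28.4 and 22.5 CPM, so control replicate 2 was then above control replicate 1, although 3 of these 5 genes (Cnmd, Hapln1 and Spp1) were higher in both pools. Ibsp was not, at 9.43 CPM in control replicate 2 and 0.425 CPM in CKO replicate 2.

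Other neighbouring tissues did not share the pattern. Skeletal muscle markers summed to 183, 283, 148, 106, 433 and 178 CPM, with 0 of 16 higher in both pools, and Myh3 was the most abundant at 62.3, 63.1, 32.9, 21.4, 145 and 39.8 CPM. By the sum, CKO replicate 2 was thus highest in muscle genes and control replicate 1 was not above control replicate 2. Single genes differed, as Myog and Tnni1 were highest in control replicate 2. Retina markers were lowest in control replicate 2, with sums of 2408, 1183, 3687, 2696, 2402 and 3292 CPM and 0 of 20 higher in both pools; Tubb3, the most abundant, was at 424, 177, 691, 494, 414 and 605 CPM. Red cell markers summed to 602, 1256, 412, 349, 494 and 488 CPM, led by Hbb-y at 468, 966, 311, 245, 373 and 367 CPM. Hba-a2, Hbb-bt, Hbb-bs and Hbb-b1 were at 0 in every library. The authors limited the table to genes above a minimum mean FPKM, so these zeros cannot be read as absent RNA. By the markers with counts, control replicate 2 was thus the library with the most red cell RNA and the least retina RNA.

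Vascular and immune markers varied less. Endothelial markers summed to 417, 378, 331, 296, 394 and 307 CPM with 2 of 13 higher in both pools, and their most abundant gene Kdr was at 150, 95.5, 159, 119, 129 and 134 CPM. Mural cell markers summed to 255, 270, 229, 234, 292 and 237 CPM (2 of 7; Notch3 at 129, 117, 146, 143, 147 and 152 CPM). Macrophage markers summed to 133, 150, 92.7, 83.3, 115 and 89.5 CPM (0 of 11; Csf1r at 30.5, 32.7, 23.6, 18.1, 29.2 and 21.0 CPM). The endothelial sum was higher in the 2 pools than in the others by library totals, but with TMM scaling it was 418 in control replicate 1, 436 in control replicate 2 and 377 in CKO replicate 2, and 0 of its 13 genes were higher in both. The mural and macrophage sums did not follow. Schwann cell and nerve markers had 2 measured genes, which summed to 24.1, 13.2, 23.5, 20, 22.8 and 22.2 CPM, with 1 of the 2 higher in both pools. Genes that respond to handling summed to 139, 122, 136, 129, 146 and 155 CPM, led by Jun at 59.6, 47.7, 65.3, 65.3, 68.8 and 75.3 CPM, and 3 of 8 were higher in both pools (1 of 8 after TMM scaling).

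Lens fibre markers had the largest sum of all the lists in every pool. Lens epithelium markers summed to 2445, 2486, 2441, 2699, 2641 and 2808 CPM and led with Slc2a1, at 735, 793, 772, 1044, 931 and 1086 CPM. Lens fibre markers summed to 14077, 25536, 10431, 13363, 10674 and 9318 CPM, highest in control replicate 2. On both lists, 0 genes were higher in both pools. Summed over all 36, the members made up 0.114% of counts in control replicate 1 and 0.155% in CKO replicate 2, and between 0.0151% and 0.0207% in the other 4.

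**Figure D4:**
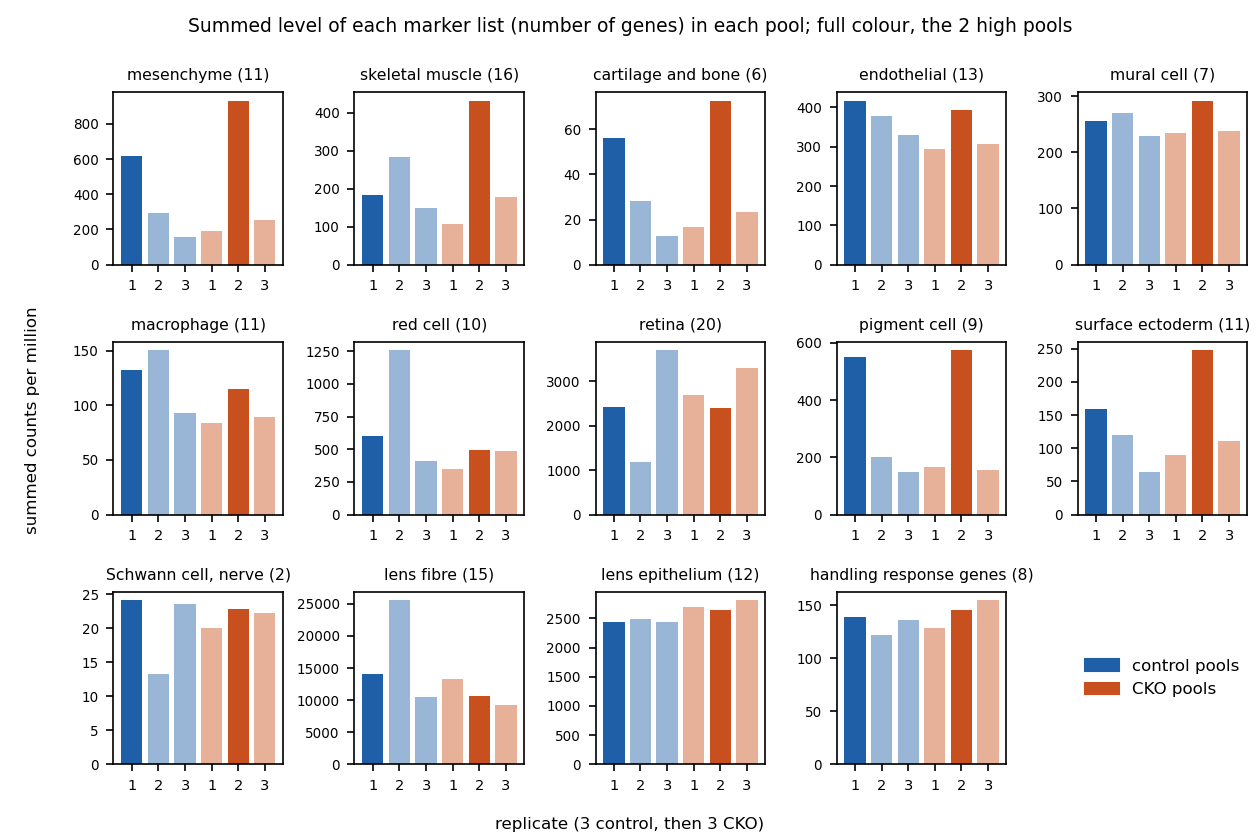
Summed level of each marker list in each pool, in CPM, with the number of measured genes in brackets, control pools in blue, CKO pools in orange and the 2 high pools in full colour. Mesenchyme, pigment cell, surface ectoderm, endothelial and, through Matn4, cartilage and bone lists are highest in those 2 pools. Skeletal muscle, red cell, retina and lens lists are not. The mesenchyme and pigment cell lists each hold 5 members, which the rule made higher, and the endothelial order does not hold with TMM scaling.

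The rule selects genes that vary within each genotype, so the comparison of genotypes could hardly call a member, and its result for them is a description. With edgeR's quasi-likelihood test, 0 of 12879 genes tested were called at an adjusted p of 0.05 (0% of all genes), and 457 (3.55%) had an unadjusted p under 0.05. Of the 36 members, 35 passed the filter on low counts, Nnmt being the exception, and 0 of the 35 were called and 0 had an unadjusted p under 0.05. By DESeq2, 85 genes were called and none of them was a member, but DESeq2 gave a p for 26 of the 35 only. The study itself used DESeq2, reported genes called at the same adjusted p limit and followed some by qPCR in independent pools. The members' log2 fold changes between libraries labelled CKO and control ran from -0.21 (Lmx1b) to 1.70 (Slc26a7), with a median of 0.36 against 0.00 over all genes tested. Of the 35, 31 were above 0, and of all genes 50.6% were, but the sign of the members rests on the 2 pools of the rule: with both left out, 15 of 29 were above 0. For Gata3 the log2 fold change was 1.72, with 0.40 as its standard error (edgeR adjusted p = 0.65, and 0.00163 by DESeq2).

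The smallest unadjusted p values among the members were those of Slc26a7, Bmp3 and A2m. By edgeR, Slc26a7 was at a log2 fold change of 1.70 (standard error 1.57), Bmp3 at 0.88 (1.26) and A2m at 0.69 (1.06), all at an adjusted p of 1 after rounding. The standard errors of the 35 members ran from 0.86 to 2.03, with a median of 1.12, whereas the median over all genes was 0.13. For Lum the 95% interval of the log2 fold change was -2.88 to 4.09, so changes several-fold in either direction lie within it. A genotype difference of usual size in the members would not be seen here.

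A term for the 2 high pools beside genotype takes up the split the members were selected on, so the smaller standard errors it gives them (median 0.32) follow from the rule. With it the median log2 fold change was 0.19 and 26 of 35 were above 0. In that fit 408 of all genes (3.17%) and 1 member (2.86%) had an unadjusted p under 0.05; the member was Slc26a7, with a log2 fold change of 1.46 (standard error 0.50, edgeR adjusted p = 0.999). That p rests on the same split, and a share near that of all genes is no result about the members. With both high pools left out, 29 members passed the filter, 15 were above 0 and 14 below, and their median was 0.02. Leaving out 1 high pool restates the rule, as it sets the direction of the members: without control replicate 1 the median was 1.86 and all 30 members tested were above 0, and without CKO replicate 2 it was -1.45 and 0 of 30 were. The median was -0.01 without control replicate 2, -0.09 without control replicate 3, 0.82 without CKO replicate 1 and 0.74 without CKO replicate 3.

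**Figure D5:**
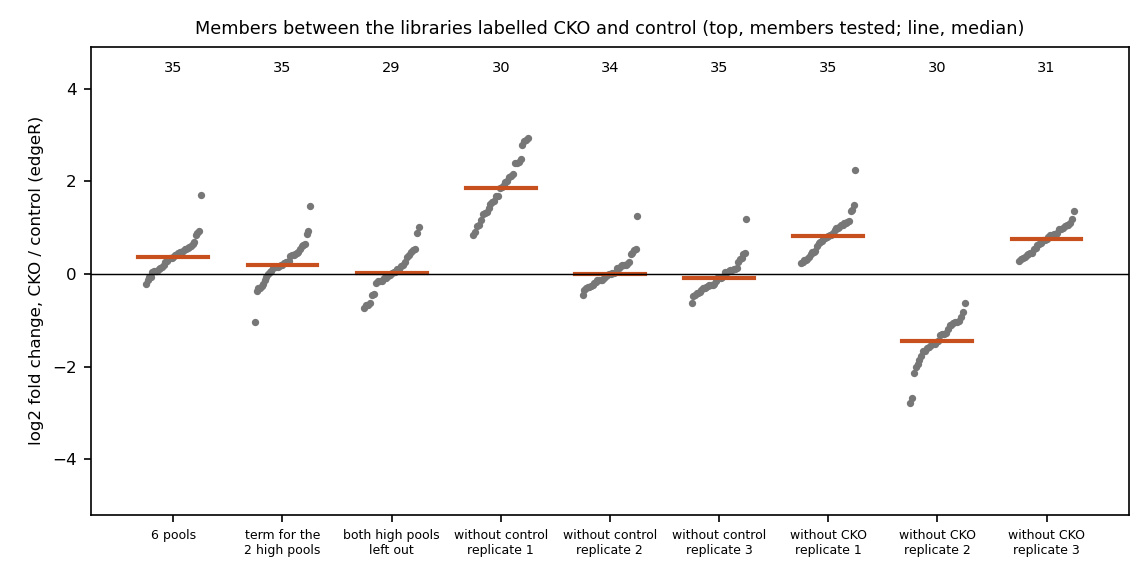
log2 fold change of each member between libraries labelled CKO and control (edgeR) with all 6 pools, with a term for the 2 high pools, with both left out, and with each pool left out (grey points, members; orange line, their median; number at the top, members tested). The median lies at 0.36 with all pools, at 1.86 without control replicate 1 and at -1.45 without CKO replicate 2.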

How the data were processed

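The authors sequenced polyA RNA as paired-end, strand-specific libraries, aligned reads to mm10 with TopHat2 2.0.13 and counted fragments per RefSeq gene with HTSeq 0.6.1. The deposited values are raw counts, in a table the authors limited to genes above a minimum mean FPKM in either group. Results for a few genes, 1 of them a member, are not reported here, though the genes are in the sums and counts. Replicates were not pooled further, and p-values measure the spread between these pools. The members and gene lists were chosen with earlier results of these data known, and the grouping by role was made with the values in view. Named genes were the members with the highest levels, largest ratios, smallest p or values nearest the limits, the top members of each list, Gata3, the most abundant gene and defining markers of each tissue list, and the 4 highest collagens left out; other genes named here, such as Epyc, Prrx1, Foxc1, Mitf and Dnase2b, were chosen after their values were seen.

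CPM was computed from library totals. Genotypes were compared with edgeR 4.0.16 (R 4.3.3; TMM, robust quasi-likelihood fit, at least 10 counts in at least 3 libraries, Benjamini-Hochberg adjustment over all genes tested) and, as an alternative, DESeq2 1.42.0. The edgeR script was tested on simulated counts. TMM scaling factors ran from 0.869 (control replicate 2) to 1.05 (CKO replicate 3). Exon lengths and positions were those of GENCODE on GRCm38, and promoters came from RefSeq. A floor of 3 counts was used for a count of 0, and intervals and floors cover counting error only. Other alternatives were library totals alone, totals without 16 crystallin genes, other filters, a replicate block, a term for the 2 high pools, leaving out pools, and other limits of the rule.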

Additional observations from a re-analysis of the deposited data

How the results depend on the processing

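In the comparison of genotypes, the count of genes called was 0 with edgeR and 85 with DESeq2, and 1 with library totals alone or with crystallins left out of the totals. Leaving out each pool gave 0 to 1 genes called, 0 to 0 members called and 0 to 0 members at an unadjusted p under 0.05, and a median log2 fold change of members from -1.45 to 1.86. No member was called among those with a p, but DESeq2 gave none for 9 of 35. With the term for the 2 high pools, 1 member had an unadjusted p under 0.05. With library totals alone the median over all genes moved to 0.10 and that of the members to 0.44.

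Bmp3 turned to a log2 fold change of -0.16 with both high pools left out. In the leave-one-out fits Bmp3 ran from -1.66 to 2.39 and A2m from -0.83 to 2.08, both lowest without CKO replicate 2; the causes were not tested beyond the pools left out. Gata3 had an adjusted p of 0.00163 by DESeq2.

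The replicate numbers were taken from the sample titles, and the counts cannot settle whether they pair the samples. Deviations of log CPM from the mean of each group were correlated between control and CKO pools. Same-numbered pools were at -0.487, 0.09 and 0.442. Control replicate 1 went best with CKO replicate 2 (0.558), and control replicate 3 with CKO replicate 3. Within a group of 3 pools these deviations depend on one another, and differences in tissue content enter them. With a replicate block, 0 genes and 0 members were called, and the members' median was 0.29.

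The rule gave 84 genes at a ratio of 2 and 24 at a ratio of 4, 36 at a lowest level of 1 CPM and 31 at 5 CPM. The count at 1 CPM is bounded by the authors' limit on mean FPKM. With TMM library sizes it gave 36, of which 33 were shared (Bgn, Nnmt and Twist1 left, and Angptl1, B3gnt9 and Fmod came in), and 37 with totals without crystallins. Counts of genes higher in both pools under other scalings were added after the data were seen: 922 genes (7.08%) with TMM against 1163. Depth limits the genes near 1 count, which is 0.0532 to 0.0660 CPM.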

Other observations

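Genes higher in 1 of the 2 high pools than in every other pool were looked for after the values were seen. By the same limits, 2 CPM and 3 times every other pool, 6 genes met this in CKO replicate 2 and 0 in control replicate 1. The remaining pools were not searched in this way, so these counts cannot be called particular to either pool. The homeobox gene Alx1, a factor of frontonasal and periocular mesenchyme, was at 1.20, 0.979 and 0.288 CPM in control replicates 1, 2 and 3 and at 0.99, 17.9 and 3.17 CPM in CKO replicates 1, 2 and 3. Foxl2os, an antisense transcript of the eyelid factor gene Foxl2, was at 6.77, 2.14, 1.79, 1.52, 23.3 and 6.83 CPM in the same order, and the BMP family gene Gdf10 at 4.49, 2.63, 2.19, 2.77, 13.8 and 3.72 CPM. Because the strand and overlap settings of the counting are not known here, the Foxl2os values are uncertain, and Foxl2 itself was at 4.24, 2.82, 1.38, 2.31, 13 and 4.92 CPM. Alx1 was thus higher in CKO replicate 3 than in control replicate 1, although Twist1 was high in control replicate 1. The other 3 were Prss12, Glt8d2 and the member Slc26a7, which is also high in control replicate 1 by the rule.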
